A study of Mus musculus with 6 samples.

Results

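The Schlafen genes (Slfn) of the mouse form a family of interferon-inducible genes that lie side by side on chromosome 11. The members studied here are Slfn1, Slfn2, Slfn3, Slfn4, Slfn5, Slfn8, Slfn14 and the pseudogene Slfn10-ps, 8 of the 22180 genes that the array's annotation ties to a probe set with a single gene symbol. They were taken by symbol, each has 1 such probe set, and all 8 passed the filter on low values. The account thus covers these 8, and other Schlafen genes were not looked for. Probe sets listed under a Schlafen gene together with another gene are described at the end. The RNA came from cells sorted by flow cytometry as inflammatory monocytes (CD11b-positive, CD11c-negative, high in Ly6C), with 3 arrays for cells of the spleen and 3 for cells of the tumor. All mice, those behind the spleen arrays included, had received Th9 cells, a kind of helper T cell, and tissue was taken 10 days later. The sources used here give neither the kind of tumor, the age or background of the mice, nor whether the 3 samples of a group are separate animals, so the spread behind every p-value is that between these samples and may be technical in part or whole. Each sample was hybridised to 1 Mouse Gene 2.0 ST array, which gives 1 intensity per probe set, and levels are given as that intensity or as log2(intensity + 1).

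Schlafen proteins were named after the German word for sleep, because the first of them were found as genes that hold back the growth of T cells. They are grouped by size into short members (Slfn1, Slfn2), intermediate members (Slfn3, Slfn4) and long members (Slfn5, Slfn8, Slfn14), the last of which carry a helicase-like part at the carboxy end. Several are induced by type I interferon, whose signal reaches promoters through interferon-stimulated response elements, and some bind or cut RNA, transfer RNA among them. In myeloid cells the family is best known for Slfn2, which is needed to keep monocytes and T cells quiescent, and for Slfn4, which is regulated during macrophage activation and differentiation.

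Promoter sequences are shown for the members that hold an interferon-stimulated response element core, and for Slfn2, Slfn1, Slfn4 and Slfn3, which share a run of letters. The sequences come from RefSeq, build GRCm38.p6. There 7 members have a promoter of 250 bases before and 50 bases after the start of the transcript. The core of the interferon-stimulated response element was searched on both strands, as GAAA and GAAA with any 2 bases between them. It was found in the promoters of 2 members, Slfn5 and Slfn8, and in 3.44% of all 32851 promoters of that length. Counted by gene, as the members are, 1079 of 27025 genes had it. In the stretches below, read 5′ to 3′ on the strand of the gene, capitals mark this core. It lies 155 to 146 bases before the start of Slfn5, and in Slfn8, where it stands on the opposite strand, 48 to 39 bases before the first of 2 listed starts.
Slfn5, plus strand, chr11:82951907-82951996: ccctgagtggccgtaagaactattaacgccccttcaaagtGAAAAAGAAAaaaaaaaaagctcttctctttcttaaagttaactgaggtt
Slfn8, minus strand, chr11:83020811-83020898: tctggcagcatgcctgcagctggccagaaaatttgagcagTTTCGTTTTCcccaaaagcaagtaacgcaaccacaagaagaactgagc

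The 4 genes that follow one another from Slfn2 to Slfn3 have no such core in this window. Their promoters share a run of 9 bases, ACTTCCTGG, the longest that all 4 hold, which was looked for after the sequences had been seen. On the opposite strand it contains GGAA, the letters at the centre of sites for factors of the ETS family. On either strand the run occurs in 0.843% of all promoters, and none of the other 3 members with a promoter holds all 9 bases. Slfn14 holds part of it with the same GGAA, in a stretch shared with Slfn2 (TTCCTGGAGG) and, 1 base shorter, with Slfn1 and Slfn4 (TTCCTGGAG). In the 4 genes from Slfn2 to Slfn3 the run of 9 bases ends 34 to 66 bases before the start of the transcript. Between Slfn1 and Slfn4 the shared stretch is 15 bases long (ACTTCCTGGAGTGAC). Capitals mark the run of 9 bases.
Slfn2, plus strand, chr11:83065017-83065105: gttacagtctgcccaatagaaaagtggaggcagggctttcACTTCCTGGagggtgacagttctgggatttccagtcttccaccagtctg
Slfn1, plus strand, chr11:83116706-83116794: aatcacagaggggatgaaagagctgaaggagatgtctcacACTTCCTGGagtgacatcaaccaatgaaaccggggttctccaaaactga
Slfn4, plus strand, chr11:83175073-83175161: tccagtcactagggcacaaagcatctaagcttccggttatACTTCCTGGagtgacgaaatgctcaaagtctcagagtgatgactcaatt
Slfn3, plus strand, chr11:83191248-83191329: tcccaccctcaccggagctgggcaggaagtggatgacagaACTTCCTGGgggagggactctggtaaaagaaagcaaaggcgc

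Of the other motifs searched on both strands, the AP-1 site TGANTCA was found in Slfn4 and Slfn14 (7.81% of all promoters) and the PU.1 core GAGGAA in Slfn14 (28.3%). The interferon gamma activated site TTCNNNGAA (8.3% of all promoters) and the NF-kB site (GGGAC followed directly by TTTCC, 0.155%) were found in none of the 7. A match is a description of letters in this window and not a site shown to be bound.

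The arrays were compared before the family was read. Over all probe sets the median of log2(intensity + 1) was 4.73 on spleen array 3 and 4.76 on tumor array 3, against 4.50 to 4.51 on the other 4 arrays. The number of arrays limits the precision. On the arrays numbered 3, 7 of 8 members had their highest spleen level and 8 of 8 their highest tumor level, as had 73.5% and 70.6% of all genes tested. A fit that blocks on the replicate number, and differences within each number, are therefore given too.

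Of 12 Ly6C-high monocyte markers 11 were tested, of which 4 rose, 3 fell and 4 did not pass, with a median difference of -0.06. Both brightest, Lyz2 and Chil3, stood at -0.11 ± 0.14 and -0.12 ± 0.14 (SE, limma adjusted p = 0.813 and 0.777). The rises were those of the Fc receptor gene Fcgr1 (3.56 ± 0.16), the proteoglycan gene Vcan (2.44 ± 0.16), Cd14 (2.01) and Ly6c2. Ly6c2, a gene of the sort, lay at 6.81 ± 0.58 (SD, n = 3) in spleen and 8.29 ± 0.40 in tumor (adjusted p = 0.0185, but up to 0.0698 without spleen 1 or spleen 2). Itgam (CD11b), the other, fell from 10.04 ± 0.15 to 9.19 ± 0.22 (adjusted p = 0.015, but up to 0.08 without spleen 2, tumor 1 or tumor 2). Ccr2 and Csf1r fell by 0.93 and 0.57, the latter with a call lost on leaving out any array but tumor 3 (adjusted p up to 0.173). Itgax, which encodes the CD11c that the sort selected against, was not absent, at 11.16 ± 0.12 in spleen and 10.31 ± 0.17 in tumor (adjusted p = 0.00986, but 0.0593 without tumor 1).

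Of the 8 Schlafen genes, 7 rose in tumor and Slfn14 did not pass the test (limma, Benjamini-Hochberg adjusted p under 0.05 over 18458 genes). Over all genes tested 5.73% were called higher, 4.85% lower and 10.6% in either direction. In the same 7 members every tumor array lay above every spleen array, which held for 9.81% of all genes. The median difference, tumor minus spleen on the log2(intensity + 1) scale, was 2.83 over the 8 members and -0.05 over all genes. With the replicate block 11.7% of all genes were called higher and 29.0% in either direction, and the same 7 members were called, at adjusted p of at most 0.000313. Without both arrays numbered 3, an alternative added once the values were known, the 7 were called at adjusted p of at most 0.0114. In sorted bulk RNA, a different mixture of cells and a different amount of RNA per cell cannot be told apart.

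**Figure D1:**
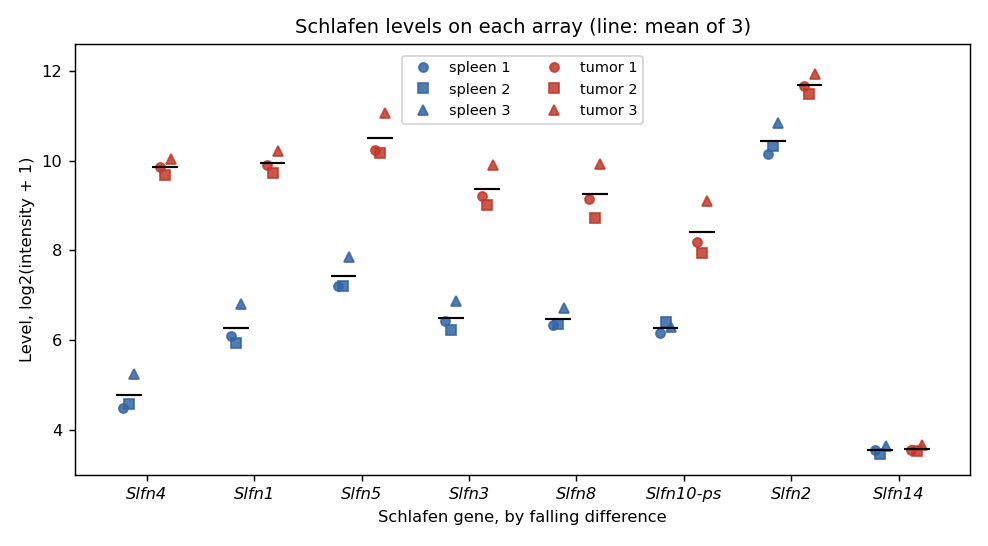
Level of each Schlafen gene, as log2(intensity + 1), on the 3 spleen arrays (blue) and the 3 tumor arrays (red). The symbol gives the array number and the black line the group mean, and the groups do not overlap for 7 genes while Slfn14 lies at about the same level on all 6 arrays.

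Both intermediate members rose, and Slfn4 had the largest difference of the members studied. Slfn4 (probe set 17254176, Entrez gene 20558) had intensities of 21.55, 22.95 and 37.01 on spleen arrays 1 to 3 and of 929.8, 819.7 and 1053 on tumor arrays 1 to 3. Its lowest tumor value was 22.2 times its highest spleen value. Slfn4 is a member known from myeloid cells, and its 3 tumor values lay far above its spleen values. The difference was 5.09 ± 0.22 (SE), or 34.0-fold, with an adjusted p of 4.41e-06 by limma, the 16th largest rise among the 18458 genes. Its spleen mean of 4.78 was close to the 25th percentile of the levels of tested genes (4.42), where background limits the size of a fold.

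Slfn3 (probe set 17254188, Entrez gene 20557), the other intermediate member, known from T cells and from the differentiation of gut epithelium, had intensities of 84.39, 73.53 and 116.1 in spleen and of 593.2, 518.0 and 951.2 in tumor. Tumor array 3 stood highest and the groups did not overlap. The difference was 2.87 ± 0.26, or 7.33-fold (limma adjusted p = 0.00024).

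The short members were both higher in tumor, by very different amounts. Slfn1 (probe set 17254171, Entrez gene 20555), the founding member and a growth inhibitor of T cells, had intensities of 67.34, 59.97 and 111.2 in spleen and of 950.3, 851.2 and 1196 in tumor. The third array was again the highest of each group, and the groups lay far apart. The difference of Slfn1 was 3.67 ± 0.25, or 12.8-fold (limma adjusted p = 4.33e-05).

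Slfn2 (probe set 17254166, Entrez gene 20556), the quiescence factor, had intensities of 1131, 1274 and 1844 in spleen and of 3224, 2849 and 3915 in tumor. It was bright on every array, and its lowest tumor value was 1.54 times its highest spleen value, the narrowest gap among the 7 members that rose. The difference of Slfn2 was 1.25 ± 0.22, or 2.38-fold (limma adjusted p = 0.00764). With each array left out in turn it ranged from 1.11 to 1.46, at adjusted p of at most 0.0404.

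Among the long members Slfn5 and Slfn8 rose by similar amounts. Slfn5 (probe set 17254153, Entrez gene 327978), a nuclear member known as a repressor of transcription, had intensities of 147.6, 147.8 and 229.9 in spleen and of 1214, 1154 and 2151 in tumor. Array 3 was high in both groups. The difference of Slfn5 was 3.07 ± 0.28, or 8.4-fold (limma adjusted p = 0.00024).

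Slfn8 (probe set 17266861, Entrez gene 276950) had intensities of 79.87, 80.84 and 104.2 in spleen and of 563.0, 421.8 and 969.7 in tumor. The 3 tumor arrays spread more widely than the spleen arrays, with SDs of 0.61 and 0.21 on the log2 scale. The difference of Slfn8 was 2.79 ± 0.29, or 6.93-fold (limma adjusted p = 4.96e-04).

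Slfn10-ps (probe set 17266873, Entrez gene 237887), a pseudogene that lies beside Slfn8, had intensities of 70.32, 83.27 and 77.21 in spleen and of 291.8, 244.2 and 544.1 in tumor. It is the 1 member whose spleen array 3 was not the highest of its group, while tumor array 3 was, and its tumor SD was 0.61 against 0.12 in spleen. The difference was 2.13 ± 0.28, or 4.37-fold (limma adjusted p = 0.00191). The Schlafen genes are close relatives of one another, so a probe set can read a related transcript, and how far this happened was not tested. Slfn10-ps in particular is read as the value of its probe set.

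Slfn14 (probe set 17266885, Entrez gene 237890), a long member that cuts RNA and is known from reticulocytes and platelets, had intensities of 10.82, 9.978 and 11.51 in spleen and of 10.82, 10.53 and 11.61 in tumor. The groups overlapped. On the log2 scale its level was 3.56 ± 0.09 (SD, n = 3) in spleen and 3.58 ± 0.07 in tumor, close to the 25th percentile of all probe sets on the same arrays (3.46 to 3.61), so it was dim throughout. The difference was 0.03 ± 0.14 (limma adjusted p = 0.97), and a change in a transcript this close to background may not be detectable. Of the erythroid markers 5 of 10 were tested, of which Tfrc, the transferrin receptor, fell by 1.68 ± 0.27 (adjusted p = 0.00514) and 4 did not pass, with a median difference of -0.06. Of the platelet markers 8 of 10 were tested, with a median of -0.14. Among these Ppbp, a platelet chemokine, fell by 2.00 ± 0.20 (adjusted p = 4.4e-04), the collagen receptor gene Gp6 rose by 0.87 ± 0.20 (adjusted p = 0.0257) and 6 did not pass. Gp6 lost its call without spleen 1, spleen 2, tumor 1 or tumor 3 (adjusted p up to 0.113).

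**Figure D2:**
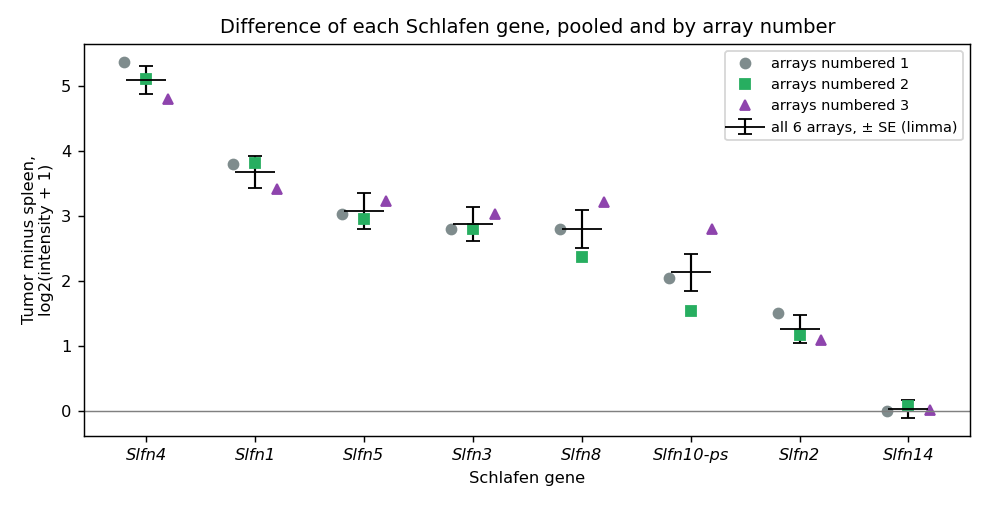
Tumor minus spleen on the log2(intensity + 1) scale for each Schlafen gene. Black bars give the difference over all 6 arrays with its SE from limma, and coloured symbols give the difference between the arrays of equal number, which runs from 5.37 for Slfn4 in number 1 to 0 for Slfn14.

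The order of the differences ran Slfn4, Slfn1, Slfn5, Slfn3, Slfn8, Slfn10-ps, Slfn2, Slfn14. Genes next to each other in this order were compared by the per-array difference of their log2 values, with an exact permutation test (two-sided), whose smallest p with 3 against 3 arrays is 0.1. That smallest p of 0.1 was reached by 6 of the 7 pairs (Benjamini-Hochberg adjusted p = 0.117), so none could pass 0.05. The order was taken from the same differences, so the direction of each pair was fixed in advance. Slfn4 rose by 1.41 ± 0.09 (SE) more than Slfn1, and by a similar amount at each array number (1.57, 1.29 and 1.38). Slfn1 rose by 0.60 ± 0.17 more than Slfn5, which shrank to 0.19 in number 3. Slfn5 rose by 0.20 ± 0.08 more than Slfn3. Slfn3 and Slfn8 could not be told apart, with a difference of 0.08 ± 0.13 whose sign varied among the numbers (exact permutation p = 0.6). Slfn8 rose by 0.67 ± 0.14 more than Slfn10-ps. Slfn10-ps rose by 0.87 ± 0.30 more than Slfn2, at 0.53, 0.38 and 1.72 in numbers 1, 2 and 3. The tumor minus spleen difference of Slfn2 exceeded that of Slfn14 by 1.22 ± 0.20.

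The array numbers also split the family, a pattern noticed after the values were seen. For Slfn4, Slfn1 and Slfn2 the difference was smallest in number 3, at 4.79, 3.41 and 1.09. It was 5.37, 3.80 and 1.51 in number 1, and 5.10, 3.81 and 1.16 in number 2. For Slfn2, numbers 2 and 3 thus lay close together. For Slfn5, Slfn3, Slfn8 and Slfn10-ps the difference was largest in number 3, at 3.22, 3.02, 3.21 and 2.80. It was 3.03, 2.80, 2.80 and 2.04 in number 1, and 2.96, 2.80, 2.37 and 1.54 in number 2. Each number holds 1 array per group, so this split has no test. Among the 7 members that rose, the closest profiles over 6 arrays and after each gene's mean was taken off were those of Slfn5 and Slfn3 (Euclidean distance 0.31 on the log2 scale) and of Slfn3 and Slfn8 (0.33). Of these 7, Slfn4 and Slfn2 were farthest apart (4.70).

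In the order of the RefSeq gene table the members run Slfn5, Slfn8, Slfn10-ps, Slfn2, Slfn1, Slfn4, Slfn3 and Slfn14 on chromosome 11, and the 6 nearest tested protein-coding genes on each side were read from the same fit. Of these 12 neighbours 1 was called higher, 1 lower and 10 did not pass, where 10.6% of all genes tested were called in either direction, and their median difference was 0.04, with a range from -0.85 to 0.70. Unc45b, a chaperone of myosin that precedes Slfn5, stood at 0.15 ± 0.25 (limma adjusted p = 0.875). Ap2b1, a subunit of the clathrin adaptor and the first tested gene after Slfn14, stood at 0.17 ± 0.17 (adjusted p = 0.713). The called neighbours were the DNA ligase gene Lig3, which fell by 0.85 ± 0.15 (adjusted p = 0.00737, but 0.0503 without spleen 2), and the RNA-binding protein gene Taf15 (0.70 ± 0.19, adjusted p = 0.0492). Taf15 lost its call on leaving out any array but spleen 3 (adjusted p up to 0.192).

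**Figure D3:**
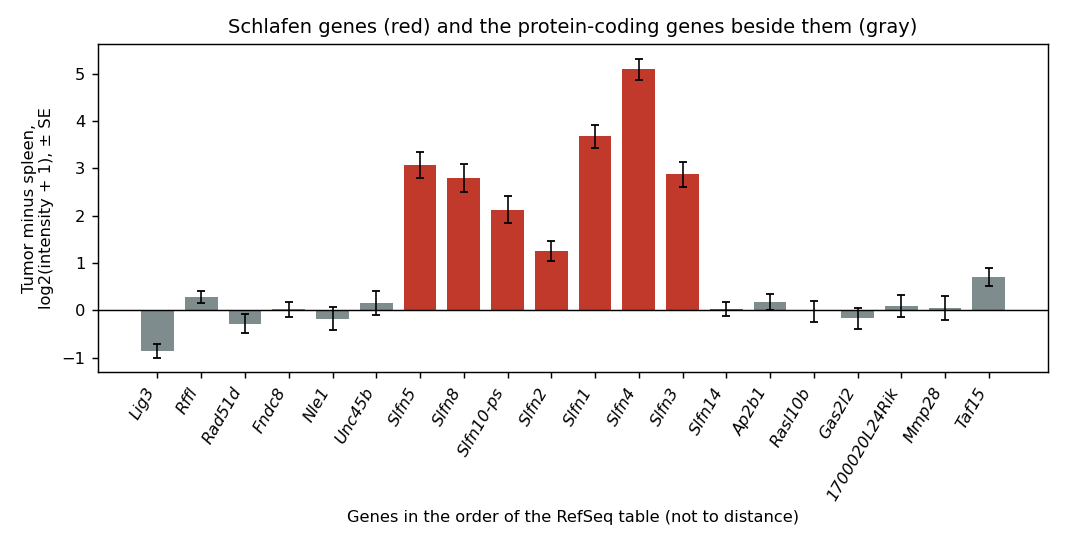
Tumor minus spleen on the log2(intensity + 1) scale, with SE, for the 8 Schlafen genes (red) and 12 neighbouring protein-coding genes (gray), in gene order and not to distance. The members from Slfn5 to Slfn3 stand between 1.25 and 5.09, and Slfn14 and the neighbours between -0.85 and 0.70.

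Genes of the interferon pathway were read from lists, described by counts and medians. Of 20 tested type I interferon-induced genes 20 rose, with a median difference of 3.30, against 2.83 for the Schlafen genes and -0.05 over all genes. Oasl1, a relative of the 2-5A synthetases, rose by 5.75 ± 0.14 and Mx2, an antiviral GTPase, by 5.39 ± 0.14 (limma adjusted p = 7.77e-07 for both). The bright members Samhd1, which degrades nucleotides, and Ifitm3, which blocks virus entry, rose by 1.06 ± 0.16 and 2.12 ± 0.14. Differences in this list ran from 1.06 to 5.75, and those of the Schlafen genes from 0.03 to 5.09.

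In the chain from interferon receptor to nucleus 6 of 14 tested genes rose, 1 fell and 7 did not pass (9 rose with the replicate block), with a median of 0.50. The rises lay downstream, with Irf7, which amplifies interferon production, at 4.42 ± 0.16 (limma adjusted p = 2.21e-06). The feedback inhibitors Socs1 and Usp18 rose by 2.78 ± 0.21 and 2.69 ± 0.14. Stat2 and Irf9, which carry the type I interferon signal to the response element, rose by 2.69 and 1.52, both named after their values were seen. The kinase gene Jak2, the brightest of the list, stood at 0.45 ± 0.16 (adjusted p = 0.135, and 0.0128 with the replicate block). The member that fell was the receptor chain Ifngr1, by 0.93 (adjusted p = 0.00312).

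Other genes that cut RNA or stop translation moved both ways, with 3 of 9 higher, 2 lower and a median of -0.26. The replicate block called 4 of them higher and 4 lower. Eif2ak2, the kinase PKR, which halts translation on sensing double-stranded RNA, rose by 2.76 ± 0.21 (limma adjusted p = 7.5e-05). Its rise is also counted among the type I interferon-induced genes above, so the lists overlap in this gene. Eif2ak3, the kinase of the same family that answers unfolded protein, fell by 1.82 ± 0.16 (adjusted p = 2.18e-04). Zc3hav1, which targets viral RNA for decay, rose by 1.09 ± 0.19. Rnh1, the ribonuclease inhibitor that restrains angiogenin, fell by 0.53 ± 0.14 (adjusted p = 0.0468), a call lost without any 1 array (adjusted p up to 0.188).

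Among 19 tested genes of quiescence and division, the process for which Slfn2 is known, 3 rose, 2 fell and 14 did not pass, with a median of -0.08. Over all genes tested 5.73% were called higher and 4.85% lower. The replicate block called 4 of the list higher and 3 lower. The list holds genes that drive division and genes that restrain it, so its median gives no direction for the process. The D-type cyclin Ccnd2 rose by 3.10 ± 0.17 (limma adjusted p = 1.36e-05) and the cell cycle inhibitor Cdkn1a by 0.92 ± 0.16 (adjusted p = 0.00703). Klf2, a quiescence factor, fell by 0.95 ± 0.18 (adjusted p = 0.0109, but up to 0.0614 without spleen 2 or tumor 1). Pcna, the sliding clamp of replication, stood at -0.03 ± 0.20. Of 11 NF-kB and AP-1 factor genes 2 rose, Fos by 1.24 ± 0.23 (adjusted p = 0.0107) and the inhibitor Nfkbia by 1.13 ± 0.21 (adjusted p = 0.00954, but 0.0506 without tumor 1), with a list median of 0.27. Rel, an NF-kB subunit and one of the brightest of the list, stood at 0.46 ± 0.24 (adjusted p = 0.332, and 0.00966 with the replicate block). With the replicate block 4 of these rose and 1 fell.

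**Figure D4:**
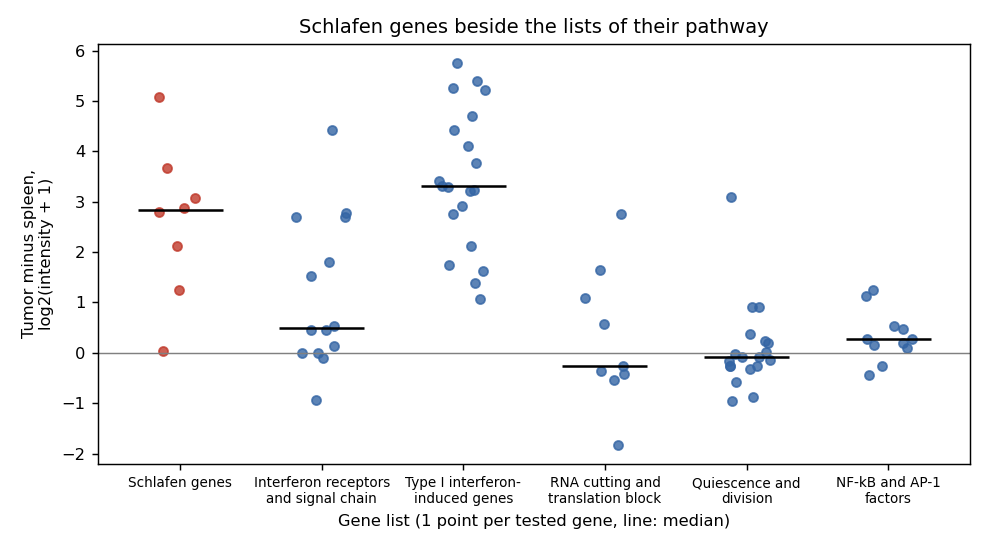
Tumor minus spleen on the log2(intensity + 1) scale for the Schlafen genes (red) and for the tested genes of 5 lists (blue). Each list has 1 point per gene and a line at the median, and Eif2ak2 is drawn in both lists that hold it. The medians are 2.83 for the Schlafen genes, 0.50, 3.30, -0.26 and -0.08 for the next 4 lists, and 0.27 for the last.

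For the Schlafen genes that rose most, the genes of most similar profile were sought by the smallest Euclidean distance over 6 arrays, after each gene's mean was taken off. Nearest to Slfn4 were the antiviral gene Ifit1 (distance 0.33 on the log2 scale, difference 5.26), the nucleotide kinase gene Cmpk2 (0.35, difference 5.21) and the itaconate-making Acod1 (0.45, difference 4.87). Nearest to Slfn1 were the guanylate-binding protein gene Gbp7 (0.34), the RNA sensor gene Tlr3 (0.39) and the chemokine gene Ccl4 (0.45). Nearest to Slfn5 were Enpp4 (0.24), Rtp4 (0.29) and the VEGF receptor gene Kdr (0.34), and nearest to Slfn3 were B3gnt5 (0.15), Ppm1k (0.27) and again Kdr (0.28). These distances describe likeness over 6 arrays of 2 groups, which all genes that rose by a similar amount share.

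Markers of other cells that can express Schlafen genes were read as well. Sums of intensity take every listed marker that has a probe set with a single gene symbol, tested or not. These were 11 in the T cell list, 9 in the NK cell list and 10 in the stromal and endothelial list. Summed intensities of the T cell list, with 10 of 12 markers tested, ranged from 2428 to 2759 in spleen and from 3222 to 3718 in tumor, while the defining marker Cd3e lay at 4.96 ± 0.67 and 5.02 ± 0.68. Its called members were Cd3g, which fell by 1.36 ± 0.18, and Il7r, which rose by 0.57 ± 0.15 (limma adjusted p = 0.0451), a receptor gene that was bright in both groups. The call of Il7r was lost on leaving out any array but spleen 3 (adjusted p up to 0.193), and without Il7r the sums were lower in tumor, at 247 to 309 against 368 to 418. The NK cell list (8 of 10 tested) summed to between 276 and 377 in spleen and between 669 and 954 in tumor, with 2 members called higher, Klrk1 (1.73 ± 0.23) and Txk (1.22 ± 0.24, adjusted p = 0.0146, but up to 0.0684 without tumor 1 or tumor 2), while the defining Ncr1 lay at 4.07 ± 0.32 in spleen and differed by -0.07 ± 0.19. The neutrophil list (12 of 12 tested) summed to between 3462 and 4117 in spleen and between 2547 and 2853 in tumor, with 2 members called lower, Mmp9, which fell by 1.12 ± 0.17, and Mmp8, which fell by 0.68 ± 0.16 (adjusted p = 0.034). Mmp8 lost its call on leaving out any array but tumor 3 (adjusted p up to 0.141). Without Klrk1 the NK cell sums were still higher in tumor, at 187.9 to 229.7 against 142.4 to 184.5 in spleen. Without Mmp8 the neutrophil sums were still lower in tumor, at 1375 to 1514 against 1697 to 1813 in spleen. Summed levels of the B cell list overlapped between the groups. Genes were left out of sums after the values were seen, and the sums that follow moved with 1 gene each. The stromal and endothelial list (9 of 10 tested) summed to between 888 and 1130 in tumor against 672 to 742 in spleen. Its only called member was Kdr (2.88 ± 0.23), 8 did not pass, the median was -0.07, and without Kdr the sums overlapped (581 to 631 against 609 to 696). The dendritic cell list (9 of 10 tested) summed to between 2194 and 2420 in tumor against 3173 to 3509 in spleen, and without Itgax the sums overlapped. In that list Zbtb46, a transcription factor gene of dendritic cells, rose by 0.89 ± 0.17 (adjusted p = 0.012, but up to 0.0622 without spleen 1, spleen 2 or tumor 2), Itgax fell, 7 did not pass and the median was 0.05. Sums of the erythroid and platelet lists were lower in tumor (118 to 137 against 221 to 325, and 393 to 466 against 747 to 1018), and overlapped without Tfrc and without Ppbp. The part of these cells in the Schlafen differences was not tested.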

How the data were processed

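The table that the authors deposited gives linear intensity values of probe sets for 3 spleen and 3 tumor samples. RMA, which corrects background, normalizes arrays and summarises probes, is named in the submitters' processing notes. No source used here names its version, its settings or the genome build. The arrays do not share 1 distribution.

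Members and gene lists were chosen with earlier results of these data known. Of 41345 probe sets, 23521 have 1 gene symbol in the platform annotation, 1814 several and 16010 are not listed, and only the first were used. The entries of all 8 members matched a RefSeq gene identifier. Per gene, the probe set with the highest mean was taken, and genes above the 25th percentile of the array on at least 3 arrays were tested (18458). Values were taken as log2(intensity + 1), so folds of dim genes are understated. Groups were compared with limma 3.58.1 (R 4.3.3), with group as the only term, a moderated two-sided test from lmFit and eBayes, and calls at an adjusted p under 0.05. The fit was tested on simulated data with independent noise on each array. Those data lack the likeness of the arrays numbered 3, so that test does not cover it.

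Deviations from the group means of arrays with equal numbers correlated at 0.36, 0.44 and 0.71 over 18458 genes, which are not independent. Unequal numbers 1 and 2 correlated too (0.35 and 0.46). Number 3 thus stands apart, and what a number stands for is not in the labels.

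Genes were named by a fixed rule, which takes all members, and per list the 2 largest called changes and the 2 brightest genes, or, in lists without a call, the 2 smallest p, with exceptions stated. It also takes the 3 nearest profiles of the 4 members that rose most, and called neighbours of the cluster, while the first neighbour on each side was chosen after its value was seen. Cell type markers are an exception: they were read as lists, the brightest genes are named in part, and others were named after their values were seen. Alternatives were other normalizations, filters, a pseudocount of 16, the mean of probe sets, a trended prior, the replicate block and each array left out. A planned comparison of protein sequences was not made. Promoters were read with Biopython 1.88.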

Additional observations from a re-analysis of the deposited data

How the results depend on the processing

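The 7 Schlafen rises were called in each of 16 alternatives, all 112 values keeping direction and call, with a largest adjusted p of 0.0404 by limma. Slfn14, which did not pass the filter at the 50th percentile, was tested in 15 and called in none (smallest adjusted p = 0.769), and with each array left out in turn its difference ranged from -0.022 to 0.073, reversing its sign without spleen 2 or tumor 3. The count of genes called over the whole array moved, from 1952 to 3506 with quantile normalization, 3289 with median centring, 3184 with cyclic loess and 5346 with the replicate block. It was 2943 among the arrays numbered 1 and 2, an alternative chosen after seeing the data. With each array left out it ranged from 1004 to 1929, and fell by over 1.5 times without spleen 1 (1148), spleen 2 (1034) or tumor 1 (1004). The replicate block changed no call of a Schlafen gene.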

Other observations

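The annotation lists 2 further probe sets under a Schlafen gene together with another gene, so they belong to no single member. One of them (17266851) had intensities of 81.1, 87.8 and 112.9 on spleen arrays 1 to 3 and of 1792, 1544 and 2142 on tumor arrays 1 to 3, a difference of 4.27 on the log2(intensity + 1) scale (6.55 ± 0.25 in spleen and 10.82 ± 0.24 in tumor, SD, n = 3). The groups did not overlap. The other (17266847) had intensities of 17.6, 15.4 and 31.4 in spleen and of 20.2, 20.8 and 26.8 in tumor, a difference of 0.13, with groups that overlapped. Neither was tested.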
